A study of Mus musculus with 6 samples.

Results

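The genes examined were 10 genes by which Sertoli cells are made or recognised, and their rows were taken from the table by gene symbol. They were the transcription factor genes *Sox9*, *Sox8*, *Wt1*, *Gata4* and *Gata1* and the marker genes *Ptgds*, *Cst9*, *Aard*, *Clu* and *Trf*. All 10 were found among the 54532 genes of the deposited table. Of these, 9 passed the filter on low values, set at an average of 0.5 FPKM over the 6 samples (fragments counted per gene, scaled to gene length and library size), and *Trf* did not.

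Polyadenylated RNA had been sequenced from whole mouse testes taken 5 days postpartum (dpp), with 3 control (Ctrl) and 3 conditional knockout (cKO) samples. In the cKO mice, Cre recombinase under the promoter of the germ-cell gene *Vasa* (*Ddx4*) acted on a floxed allele of *Srsf1*, the other allele being already deleted (*Srsf1* Fl/del). *Srsf1* encodes an RNA-binding splicing factor. Cre was directed at germ cells, so that the Sertoli cells of the cKO testes were not its target. An allele already deleted would be missing from Sertoli cells as well, and the part of this in the values was not tested. The labels call the other group only Ctrl, and neither its alleles nor the strain of the sequenced animals is given in the sources used here. The comparison asks how the RNA of the surrounding somatic cells stood when *Srsf1* had been deleted in the germ cells. The study counts the samples as biological replicates, and whether a sample pooled animals is not stated.

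Sertoli cells are the somatic cells that enclose germ cells in the testis cords and feed them. In the fetal gonad, the Y-linked factor SRY switches on *Sox9*, and SOX9 with SOX8, WT1 and GATA4 then sets and keeps the Sertoli fate and holds off the ovarian one. Around birth, Sertoli cells still divide, and they secrete large amounts of a few proteins, among them clusterin.

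Recovered depth lay between 15448191 and 18964743 reads per sample, and the reads of replicate pairs differed beyond sampling noise (chi-square of 10.33 to 26.03 for each degree of freedom). *Srsf1* stood at 82.1, 89.1 and 88.4 FPKM in the Ctrl samples and at 45.1, 46.3 and 51.6 FPKM in the cKO samples, a log2 fold change of -0.85 (SE 0.087) with a limma adjusted p of 0.0578, just above the threshold of 0.05. Every cKO sample lay below every Ctrl sample, in the direction of the labels. The extraction text of the labels speaks of retinas. All 7 retina markers looked up lay below the filter, with a summed level of 0.308 to 0.349 FPKM in Ctrl and 0.213 to 0.640 FPKM in cKO, *Rcvrn* at 0.0391 ± 0.034 FPKM in Ctrl (SD, n = 3), and *Nrl* and *Crx* listed at 0 in all 6 samples. Ctrl 2 stood apart among the controls. The summed level of 16 germ cell markers was 457 FPKM there against 190 FPKM in Ctrl 1 and 203 FPKM in Ctrl 3, and results that rest on it are given below with and without it.

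The levels of the 10 genes spanned more than 3 orders of magnitude. In Ctrl testes, *Aard* was the highest at 855 ± 77 FPKM (SD, n = 3), followed by *Clu* at 576 ± 102 FPKM and *Cst9* at 429 ± 149 FPKM. These 3 ranked 27, 46 and 63 by mean level among 22046 protein-coding genes. *Gata4* came next at 99.95 ± 19 FPKM, then *Ptgds* at 43.1 ± 22 FPKM, *Sox8* at 37.7 ± 7.1 FPKM, *Wt1* at 31.8 ± 3.3 FPKM and *Sox9* at 24.2 ± 4.0 FPKM. *Gata1* followed at 4.69 ± 0.49 FPKM and *Trf* at 0.229 ± 0.063 FPKM. In the Ctrl order, the ranges of *Clu* and *Cst9*, of *Ptgds* and *Sox8*, and of *Sox8* and *Wt1* overlapped, and the other neighbours were apart. The order of the means was the same in cKO testes, where the ranges of *Aard* and *Clu* and of *Clu* and *Cst9* overlapped and all other neighbours were apart. FPKM are scaled to gene length, so these levels can be set side by side between genes.

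**Figure D1:**
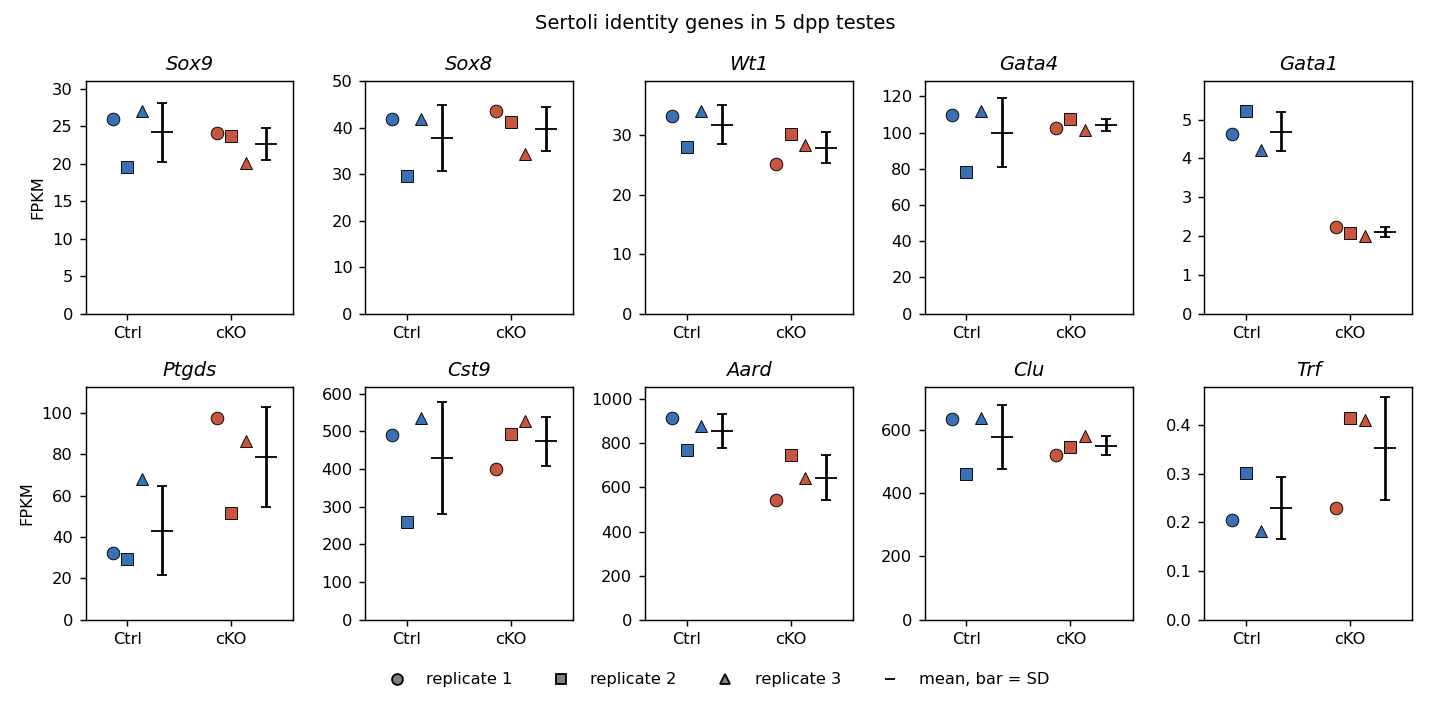
FPKM of the 10 Sertoli genes in each testis sample, with 1 panel per gene, each axis starting at 0, symbols for replicates 1, 2 and 3, and the mean with SD beside each group. The Ctrl and cKO points overlap for every gene except *Gata1* and *Aard*, which lie lower in all 3 cKO samples.

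*Sox9* (ENSMUSG00000000567; GRCm38 chromosome 11, 112782224 to 112787760, plus strand) encodes the factor that SRY activates and that carries Sertoli differentiation. Samples Ctrl 1, 2 and 3 held 25.9, 19.6 and 27.0 FPKM, and samples cKO 1, 2 and 3 held 24.1, 23.6 and 20.2 FPKM. The groups overlapped, the lowest sample of all being Ctrl 2. The log2 fold change (cKO minus Ctrl, on log2(FPKM + 1)) was -0.082 (SE 0.137), its 95% interval ran from -0.40 to 0.24, and the limma adjusted p was 0.804.

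*Sox8* (ENSMUSG00000024176; chromosome 17, 25565892 to 25570686, minus strand) encodes a close relative of SOX9 that acts alongside it in Sertoli cells. The level was 41.8, 29.5 and 41.9 FPKM in the 3 Ctrl testes against 43.5, 41.2 and 34.3 FPKM in the 3 cKO testes. All 3 cKO samples lay above Ctrl 2, and 1 of them above the other controls. The log2 fold change was 0.081 (95% interval -0.29 to 0.45) with a limma adjusted p of 0.838. In GENCODE mouse release 21, 10.6% of the exonic bases of *Sox8* are shared with 2810468N07Rik on the opposite strand, listed at 12.0 to 14.1 FPKM in Ctrl and 17.9 to 20.6 FPKM in cKO testes. Whether the counting used strand is not stated.

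*Wt1* (ENSMUSG00000016458; chromosome 2, 105126529 to 105173616, plus strand) encodes a zinc-finger factor that keeps Sertoli cells in their fate after it has been set. Ctrl values were 33.3, 28.0 and 34.05 FPKM, and cKO values were 25.1, 30.3 and 28.5 FPKM. Ctrl 1 and Ctrl 3 were above every cKO sample, and Ctrl 2 lay within the cKO range. Limma gave a log2 fold change of -0.18 (SE 0.110; 95% interval -0.44 to 0.080) with an adjusted p of 0.469.

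*Gata4* (ENSMUSG00000021944; chromosome 14, 63198922 to 63271692, minus strand) encodes a zinc-finger factor that binds GATA sites and is needed for testis formation. The Ctrl samples, in the same order, held 110, 78.0 and 112 FPKM and the cKO samples 103, 108 and 102 FPKM. The 3 cKO samples lay close together, below Ctrl 1 and Ctrl 3 and above Ctrl 2. The log2 fold change was 0.075 (95% interval -0.27 to 0.42), with a limma adjusted p of 0.837.

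*Gata1* (ENSMUSG00000031162; chromosome X, 7959260 to 7978071, minus strand) encodes the GATA factor of red cell precursors, megakaryocytes, mast cells and eosinophils, and in the testis it is found in Sertoli cells. The level was 4.64, 5.21 and 4.23 FPKM in the 3 Ctrl testes against 2.24, 2.09 and 1.99 FPKM in the 3 cKO testes. Behind these values were 183, 242 and 171 reads in Ctrl and 86, 85 and 75 reads in cKO. Every cKO sample lay below every Ctrl sample, the cKO mean being 44.9% of the Ctrl mean, and Ctrl 2 held the highest value, unlike for the other 4 factors. Limma gave a log2 fold change of -0.87 (SE 0.104; 95% interval -1.12 to -0.63), with an unadjusted p of 5.87e-05 and an adjusted p of 0.0615, just short of the threshold. At so low a level, adding 1 to the FPKM shrinks the change, and limma voom on the recovered reads gave a log2 fold change of -1.15 (SE 0.184) with an adjusted p of 0.0391.

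Among 19 alternatives, 2 more settings put *Gata1* past the threshold, the fit to protein-coding genes alone (adjusted p = 0.0167) and the weighting of samples (adjusted p = 0.0312). Over all 19, its log2 fold change lay between -1.15 and -0.81 and its adjusted p between 0.0167 and 0.225. Without Ctrl 2, the log2 fold change was -0.81 with an adjusted p of 0.0799.

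*Gata1* has 3 annotated transcripts with 3 start sites in GENCODE release 21, at 7978071, 7967910 and 7964166. In Sertoli cells the gene is known to be read from a first exon upstream of the one used in blood cells, and reads counted per gene do not tell these starts apart. Promoter sequences from RefSeq (GRCm38.p6) were held for 4 of the 10 genes (*Ptgds*, *Cst9*, *Sox8* and *Gata1*). The 250 bases before the start site were searched on both strands for GATA, the core of GATA factor sites, and for ACAAT and ACAAAG, core sites of SOX proteins. *Gata1*, the gene with the clearest difference, and *Cst9*, the gene with the most matches, are shown 5′ to 3′ on the strand of the gene, with the matches in capitals (TATC and CTTTGT are GATA and ACAAAG read on the other strand), and no matches overlap. The *Gata1* window is chrX:7967911-7968160 (minus strand) and the *Cst9* window is chr2:148834897-148835146 (plus strand), and neither overlaps an annotated exon.
Gata1: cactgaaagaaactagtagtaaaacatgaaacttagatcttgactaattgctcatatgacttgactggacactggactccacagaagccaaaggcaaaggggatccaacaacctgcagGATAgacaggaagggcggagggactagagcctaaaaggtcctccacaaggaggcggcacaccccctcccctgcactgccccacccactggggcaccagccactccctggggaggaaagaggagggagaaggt
Cst9: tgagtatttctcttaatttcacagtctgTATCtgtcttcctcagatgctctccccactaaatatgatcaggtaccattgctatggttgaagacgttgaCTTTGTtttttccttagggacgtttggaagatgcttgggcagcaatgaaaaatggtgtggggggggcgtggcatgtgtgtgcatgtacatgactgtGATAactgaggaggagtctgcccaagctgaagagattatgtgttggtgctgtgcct
The *Gata1* window precedes the start at 7967910 and not the most upstream one at 7978071, whose promoter was not analysed here. It held 1 GATA, starting 132 bases before the start site. The *Cst9* window held GATA on the other strand 222 bases before the start and on the strand of the gene 56 bases before it, and 1 ACAAAG on the other strand 152 bases before it. The windows of *Ptgds* and *Sox8* held none of these motifs. Both overlap annotated exons, of *Ptgds* itself and of 2810468N07Rik. The *Ptgds* window precedes the start at 25469749, and further annotated starts of *Ptgds* lie upstream of it, at 25469842 and 25470046. Among 32851 promoter windows of the same length, 53.6% held a GATA, 27.7% an ACAAT and 16.5% an ACAAAG. These matches describe letters and were not tested for binding.

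*Ptgds* (ENSMUSG00000015090; chromosome 2, 25466709 to 25470046, minus strand) encodes a prostaglandin D synthase, whose product adds to SOX9 activity in the fetal testis. Ctrl values were 32.2, 29.2 and 68.0 FPKM, and cKO values were 97.8, 51.7 and 86.7 FPKM. The cKO mean was 183% of the Ctrl mean, yet Ctrl 3 lay above cKO 2, so that the groups overlapped. The log2 fold change was 0.91 (SE 0.355; 95% interval 0.073 to 1.74), with an unadjusted p of 0.0369 and a limma adjusted p of 0.290. It lay between 0.69 without Ctrl 2 and 1.28 without Ctrl 3, with adjusted p of 0.569 and 0.139.

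*Aard* (ENSMUSG00000068522; chromosome 15, 52040107 to 52045722, plus strand) encodes a small protein rich in alanine and arginine. The Ctrl samples, in the same order, held 917, 769 and 878 FPKM and the cKO samples 542, 749 and 643 FPKM. All 3 cKO samples were below all 3 Ctrl samples, with little room between Ctrl 2 and cKO 2, and the cKO mean was 75.4% of the Ctrl mean. Limma gave a log2 fold change of -0.41 (SE 0.153; 95% interval -0.77 to -0.056), with an unadjusted p of 0.0290 and an adjusted p of 0.266. Without Ctrl 2 it was -0.49, and without cKO 1 it was -0.30 (95% interval -0.69 to 0.0997). Its interval also reached above 0 without Ctrl 1, without Ctrl 3, without cKO 3 and with no filter on low values. Over the 19 alternatives, its adjusted p ranged from 0.142 to 0.560.

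*Cst9* (ENSMUSG00000027445; chromosome 2, 148835147 to 148838738, plus strand) encodes testatin, a protein of the cystatin family made by pre-Sertoli cells. The level was 491, 258 and 537 FPKM in the 3 Ctrl testes against 401, 493 and 527 FPKM in the 3 cKO testes. Ctrl 2 was the lowest sample and cKO 1 the next, and the other 4 lay close together. The log2 fold change was 0.20 (SE 0.277; 95% interval -0.45 to 0.85) with a limma adjusted p of 0.755, and without Ctrl 2 it was -0.13.

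*Clu* (ENSMUSG00000022037; chromosome 14, 65968483 to 65981547, plus strand) encodes clusterin, a secreted chaperone and a main product of Sertoli cells. Ctrl values were 632, 459 and 638 FPKM, and cKO values were 521, 546 and 581 FPKM. The cKO samples lay between Ctrl 2 and the other controls. Limma gave a log2 fold change of -0.054 (95% interval -0.42 to 0.31) with an adjusted p of 0.893.

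*Trf* (ENSMUSG00000032554; chromosome 9, 103204001 to 103230444, minus strand) encodes transferrin, the iron carrier that mature Sertoli cells secrete. The table lists 0.205, 0.301 and 0.182 FPKM for the Ctrl samples and 0.230, 0.415 and 0.409 FPKM for the cKO samples, from 10 to 23 reads per sample. These values are uncertain. Of its 3320 exonic bases, 63.5% are shared with the readthrough gene Gm20425 on the same strand, which was listed at 0 in all 6 samples, and how shared reads were counted is not stated. *Trf* lay below the filter and was not tested in the chosen fit. With no filter on low values, its log2 fold change was 0.14 (95% interval -0.068 to 0.34), with a limma adjusted p of 0.641.

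Across the 9 tested genes, limma called 0 as changed at an adjusted p of 0.05, as it called 0% of all 16206 tested genes. With voom, 1 of the 9 (*Gata1*) was called lower against 0.376% of all genes, and with protein-coding genes alone, the same gene was called lower against 1.33%. At an unadjusted p under 0.05, *Gata1* and *Aard* were lower, where 9.31% of all genes were, and *Ptgds* was higher, where 6.6% were. *Gata1* and *Aard* were also the 2 genes whose groups did not overlap with cKO lower, a pattern seen in 12.8% of all genes, and 0 of the 9 did not overlap with cKO higher, against 10.3% of all genes. Of the 9 log2 fold changes, 5 were below 0 and 4 above, and their median was -0.054, against 0.0027 for all tested genes.

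**Figure D2:**
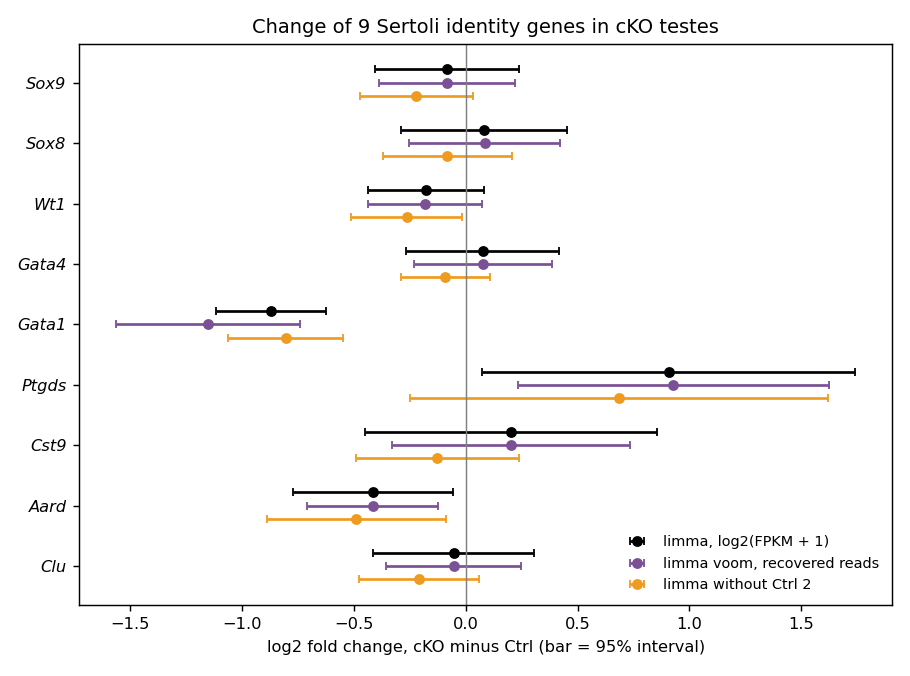
Log2 fold change of 9 Sertoli genes (cKO minus Ctrl) with 95% intervals, from limma on log2(FPKM + 1), from limma voom on recovered reads and from limma without Ctrl 2. *Gata1* and *Aard* lie below 0 with their whole interval in all 3 fits, and *Sox8*, *Gata4* and *Cst9* move from above to below 0 when Ctrl 2 is left out. In some fits not shown here, the *Aard* interval crosses 0.

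Ctrl 2 differed from the other controls in most of these genes. It held the lowest Ctrl value of 8 of the 10 genes, and for 6 of them (*Sox9*, *Sox8*, *Gata4*, *Ptgds*, *Cst9* and *Clu*) the lowest of all 6 samples. For *Gata1* and *Trf* it held the highest Ctrl value. Without Ctrl 2, the groups did not overlap, with cKO lower, for 6 genes (*Aard*, *Clu*, *Gata1*, *Gata4*, *Sox9* and *Wt1*), against 15.9% of all tested genes in the same comparison of 2 with 3 samples. Leaving out the lowest control of most of these genes by itself raises their lowest Ctrl value, so the count cannot be read as an excess over that share. *Trf*, below the filter, did not overlap with cKO higher, from 11 and 10 reads in Ctrl 1 and Ctrl 3 against 12, 23 and 21 in cKO. That pattern was seen in 13.5% of all tested genes, among which *Trf* was not counted. Without Ctrl 2, the log2 fold change was -0.22 for *Sox9*, -0.26 for *Wt1* and -0.21 for *Clu*, with limma adjusted p of 0.506, 0.416 and 0.548. The median over the 9 genes was then -0.21. The difference of Ctrl 2 in germ cell marker level stood beside these values, and its part in them was not tested.

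**Figure D3:**
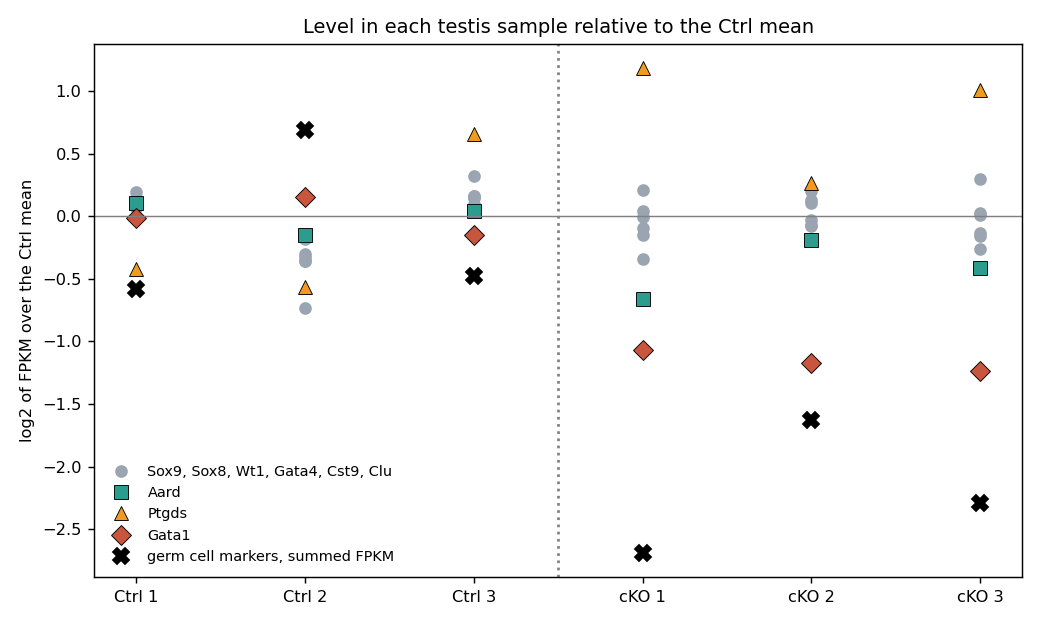
Log2 of each sample's FPKM over the Ctrl mean, for 9 Sertoli genes and for the summed FPKM of germ cell markers, in the 3 Ctrl and 3 cKO samples. In Ctrl 2 the germ cell markers and *Gata1* lie above the line while the other Sertoli genes lie below it, and in the cKO samples the germ cell markers and *Gata1* are the lowest points.

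Ratios between the genes do not depend on how samples are scaled against each other. Of 5 ratios compared, 3 did not overlap between groups. Each of these 3 had a p of 0.1 by exact permutation (two-sided), the smallest that 3 against 3 samples allow. Their Benjamini-Hochberg value over the 5 was 0.167. How often ratios of other gene pairs did not overlap was not counted, so the 3 cannot be read as an excess. *Gata1* and *Aard*, each part of 1 of them, also did not overlap by themselves. *Sox8* stood at 1.61, 1.51 and 1.55 times the level of *Sox9* in Ctrl and at 1.81, 1.74 and 1.70 times in cKO. This ratio was 0.17 higher in cKO on the log2 scale, and between 0.15 and 0.20 higher when any 1 sample was left out. The spread within each group was small beside the other ratios, with an SD of 0.050 in Ctrl and 0.044 in cKO on the log2 scale. Of the exonic bases of *Sox8*, 10.6% are shared with 2810468N07Rik, which was higher in every cKO sample. The part of shared reads in this ratio was not tested.

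The ratio of *Gata1* to *Gata4* was 0.0421, 0.0668 and 0.0378 in Ctrl and 0.0218, 0.0194 and 0.0196 in cKO, a log2 difference of -1.23. The lower cKO values were shared by all 3 samples, and the difference was -0.98 without Ctrl 2. The ratio of *Cst9* to *Aard* was 0.536, 0.336 and 0.611 in Ctrl and 0.739, 0.658 and 0.820 in cKO, a log2 difference of 0.62 that came to 0.36 without Ctrl 2. The ratio of *Wt1* to *Sox9* overlapped between groups (log2 difference -0.099, exact permutation p = 0.6), as did that of *Clu* to *Trf* (-0.66, exact permutation p = 0.2), the latter resting on the uncertain *Trf* values.

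**Figure D4:**
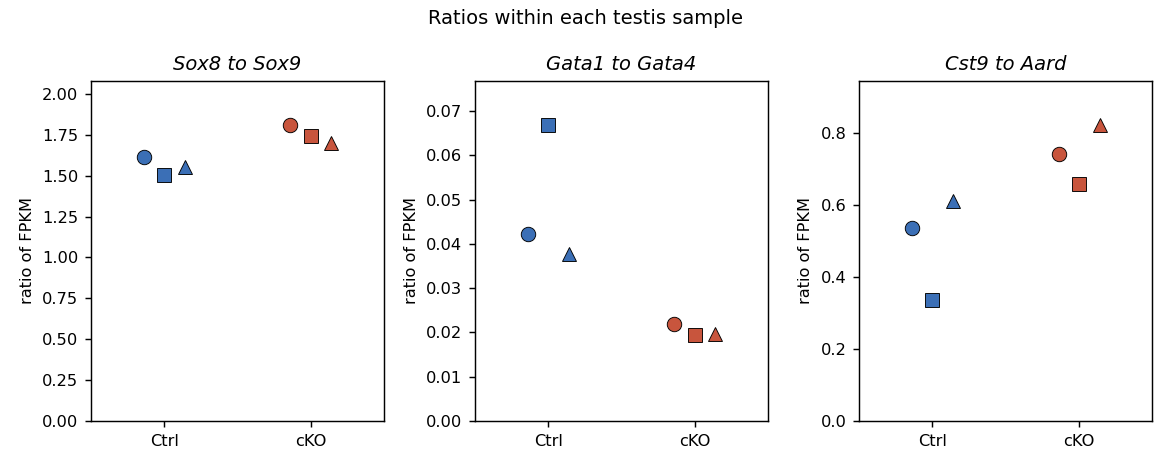
Ratio of FPKM between 2 Sertoli genes within each testis sample, for *Sox8* to *Sox9*, *Gata1* to *Gata4* and *Cst9* to *Aard*, with axes from 0 and symbols for replicates 1, 2 and 3. In each panel the 3 cKO points lie apart from the 3 Ctrl points, higher for the first and the last ratio and lower for *Gata1* to *Gata4*.

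The 10 genes sit among known partners, of which those named below had the lowest unadjusted p under 0.05 in their list or, where a list had none, the highest levels, and 0 passed the adjusted threshold. Of 19 testis determination genes, 15 were tested, 5 below 0 and 10 above, with a median log2 fold change of 0.041. *Sry*, the fetal switch upstream of *Sox9*, was listed at 0 in all 6 samples. *Dmrt1*, which guards male fate in Sertoli cells and is also made in germ cells, averaged 76.1 ± 7.7 FPKM in Ctrl testes and 48.9 ± 9.9 FPKM in cKO testes (SD, n = 3; adjusted p = 0.145). *Amh*, a direct target of SOX9 that makes the Müllerian ducts regress, had 448, 257 and 569 FPKM in the Ctrl samples and 665, 590 and 837 FPKM in the cKO samples, higher in every cKO sample (adjusted p = 0.276). *Nr0b1*, a nuclear receptor gene that can oppose testis formation, was at 31.4 ± 1.7 and 26.4 ± 2.4 FPKM, and *Lhx9*, a homeobox gene of the early gonad, at 6.78 ± 0.85 and 8.97 ± 1.3 FPKM. On the ovarian side, 7 of 11 genes were tested, 3 below 0 and 4 above, with a median of 0.090. *Wnt4* was at 3.07 and 4.27 FPKM on average in Ctrl and cKO, *Fst* at 1.92 and 1.23 FPKM, and *Bmp2* at 0.707 and 1.16 FPKM.

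Of 6 other GATA factors and their FOG cofactors, 4 were tested and all 4 were above 0, from 0.037 to 0.43. Their median was 0.23, and that of the list with no filter on low values was 0.070. *Zfpm1*, the FOG cofactor with which GATA1 works in blood, had 26.3, 19.1 and 27.9 FPKM in the Ctrl samples and 30.1, 36.7 and 31.7 FPKM in the cKO samples, higher in every cKO sample and so opposite in direction to *Gata1* (adjusted p = 0.259). Around *Ptgds*, 7 of 11 prostaglandin pathway genes were tested with a median of 0.016, which lay between -0.086 and 0.21 over the 19 alternatives. *Pla2g4a*, which frees the fatty acid that prostaglandins are made from, averaged 9.90 ± 0.45 FPKM in Ctrl testes and 11.6 ± 0.55 FPKM in cKO testes (SD, n = 3). Around *Cst9*, 6 of 9 cystatin genes were tested with a median of 0.11, and *Cst8* was at 36.4 ± 6.1 and 49.5 ± 3.2 FPKM. Around *Trf*, 10 of 12 iron handling genes were tested with a median of 0.039, and the ferritin genes *Fth1* and *Ftl1* stood at 738 and 289 FPKM in Ctrl and 776 and 295 FPKM in cKO.

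The 15 further Sertoli markers were all tested, 6 below 0 and 9 above, with a median of 0.054 and 0 called. Over the 19 alternatives, the median of these markers lay between -0.049 and 0.20. Those named lay on both sides of 0. *Cldn11*, a tight junction protein of Sertoli cells, had 70.6, 45.2 and 50.3 FPKM in the Ctrl samples and 23.1, 34.6 and 24.3 FPKM in the cKO samples, and *Defb36*, a beta-defensin, averaged 134 ± 19 and 93.1 ± 14 FPKM (SD, n = 3), both lower in every cKO sample. *Ctsl*, a protease, was at 237 ± 30 and 319 ± 9.3 FPKM, and *Hsd17b1*, a steroid dehydrogenase, at 134 ± 40 and 212 ± 21 FPKM, both higher in every cKO sample. The summed level of the list was 2255, 1672 and 2535 FPKM in Ctrl and 2692, 2474 and 2979 FPKM in cKO, again lowest in Ctrl 2. Genes with high levels weigh most in this sum, among them *Amh*, already given above. The summed level of the 10 genes described here was 1676 to 2340 FPKM in Ctrl and 1759 to 2046 FPKM in cKO.

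Markers of other cells were set beside these results, since whole testes were sequenced and fewer cells of a type cannot be told apart from less RNA per cell. Of 16 germ cell markers, 15 were tested, and all 15 were lower in every cKO sample. Their median log2 fold change was -1.57, and -1.31 without Ctrl 2. The summed level was 190 to 457 FPKM in Ctrl and 44.0 to 91.8 FPKM in cKO. *Zbtb16* was at 4.72 ± 2.0 and 0.885 ± 0.45 FPKM (mean ± SD) and *Mael* at 41.5 ± 20 and 9.13 ± 3.5 FPKM. *Dazl* was at 75.5 ± 39 and 14.7 ± 6.2 FPKM and *Nanos3* at 7.18 ± 3.3 and 1.90 ± 0.27 FPKM. Ctrl 2 held the highest value of each of these genes. *Gata1* was likewise lower in every cKO sample. Of its blood lineages, red cell markers were mostly above 0 and the tested mast cell markers below. The tested megakaryocyte markers lay on both sides of 0, and no eosinophil marker was tested. Of 12 red cell markers, 8 were tested and 7 were above 0, with a median of 0.63 (0.30 without cKO 3 and 0.95 without cKO 2). Summed levels were 441 to 700 FPKM in Ctrl and 529 to 1483 FPKM in cKO, with *Hbb-bt* at 37.0 ± 9.8 and 89.6 ± 49 FPKM. The tested red cell marker below 0 was *Klf1*, lower in every cKO sample (1.24 ± 0.36 and 0.900 ± 0.048 FPKM, limma adjusted p of 0.492). Of 14 mast cell, megakaryocyte and eosinophil markers, 7 were tested and 6 were below 0, with a median of -0.58 (-0.31 without cKO 2 and -0.95 without Ctrl 1) and summed levels of 21.6 to 44.9 FPKM in Ctrl and 21.6 to 27.8 FPKM in cKO. Over all 19 alternatives, that median lay between -0.95 and -0.13. In that list *Fcer1a*, the mast cell receptor for IgE, was listed at 0 in all 6 samples, *Pf4* was at 13.3 ± 3.6 and 11.9 ± 2.4 FPKM and *Cma1* at 4.73 ± 2.1 and 2.78 ± 1.4 FPKM. The part of these cells in the *Gata1* values was not tested.

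Among the other somatic lists, 7 of 8 Leydig cell markers were tested, 2 below 0 and 5 above, with a median of 0.44 that came to 0.21 without Ctrl 1. Their summed level was 385 to 566 FPKM in Ctrl and 609 to 704 FPKM in cKO, and those named by an unadjusted p under 0.05 were *Insl3* (54.9 ± 15 and 93.1 ± 21 FPKM), *Cyp11a1* (33.1 and 48.6 FPKM) and *Lhcgr* (4.71 and 6.76 FPKM). Of 7 peritubular myoid markers, 6 were below 0 and 1 above, with a median of -0.29 that came to -0.086 without cKO 2, and with *Myh11*, *Actg2* and *Acta2* below 0 and *Des* above. Of 7 tested endothelial markers, 1 was below 0 and 6 above (*Pecam1*, *Tie1* and *Cdh5* among them), with a median of 0.35 that came to 0.18 without cKO 3. All 7 interstitial progenitor markers were above 0 (*Pdgfra* and *Dcn* at an unadjusted p under 0.05), with a median of 0.27 that came to 0.16 without cKO 3. Of 4 rete testis markers, 1 was below 0 and 3 above (*Krt8* at an unadjusted p under 0.05), and the median of 0.32 ranged from 0.045 without cKO 3 to 0.62 without Ctrl 2. Of 8 macrophage markers, 3 were below 0 and 5 above, with a median of 0.050, and *C1qa* and *C1qb* had the highest levels. *Ptgds*, *Aard* and the other 8 genes were not adjusted for these lists, whose part in the values was not tested.

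The genes whose pattern over the 6 samples was most like that of each member were listed by Pearson r of log2(FPKM + 1) among protein-coding genes that averaged 1 FPKM or more, as a description over points that share the 2 groups and the libraries. For *Gata1* these included *Angel1* (r = 0.997) and *Fanci*, and 142 genes reached an r of 0.95, the most for any of the 10. For *Sox9* they were *Hpse* (r = 0.981), *Gucd1* and *Arsb*, with 9 such genes, and for *Sox8* *Zfp648* (r = 0.987), *Scarb2* and *Manba*, with 23. *Wt1* ran closest to *Usp46* (r = 0.991), *Amhr2*, the receptor for anti-Müllerian hormone, and *Rps6kc1*, and *Gata4* to *Nckap1* (r = 0.990), *Nacc1* and *Mlec*. The nearest genes to *Ptgds* were *Crispld1* (r = 0.995), *Zfp422* and *Ankrd9*, to *Cst9* *Sowahc* (r = 0.991), *Pla1a* and *Cilp*, to *Aard* *Tram2* (r = 0.997), *Prdx6* and *Rab11fip3*, and to *Clu* *Stab1* (r = 0.996), *Gsta2* and *Hspb7*. For *Trf*, *Hnrnpr* (r = 0.983), *Tpd52l2* and *Ppp4r3a* came closest, with 6 genes at an r of 0.95.

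Among the 10 genes themselves, over the same 6 samples, r was 0.94 between *Gata4* and *Cst9*, 0.93 between *Wt1* and *Aard*, 0.89 between *Cst9* and *Clu* and 0.89 between *Sox9* and *Sox8*. *Gata1* had an r of 0.15 with *Sox9*, -0.36 with *Gata4* and -0.76 with *Ptgds*. With 6 points in 2 groups and 1 control apart from the rest, these values describe the samples and were given no test.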

How the data were processed

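RNA was measured in 6 samples of whole testis, 3 Ctrl and 3 cKO, grouped by sample title. The authors aligned paired-end reads with HISAT2 2.0.5, counted them per gene with featureCounts and deposited 1 table of FPKM values on GRCm38 (mm10 in the labels). The annotation release is not given in the sources used here. Multiplied by gene length, 100% of the deposited FPKM came out as whole multiples (within 0.01) of a sample's step, so reads could be recovered, and the values already carried median-of-ratios scaling. For 1 kb of gene, 3 reads amount to 0.158 to 0.194 FPKM, a floor that covers counting error only.

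Tests used limma 3.58.1 (R 4.3.3) on log2(FPKM + 1), keeping 16206 genes that averaged 0.5 FPKM or more, with a mean-variance trend, two-sided p and Benjamini-Hochberg adjustment over all of them at 0.05. Limma voom on the recovered reads called 61 genes lower and 22 higher. Ratios were compared by exact permutation. Other alternatives changed the pseudocount (0.1), the filter, the scaling, the variance model or the samples. The methods were tested on simulated data. Genes and lists were chosen with earlier results of these data known. Named were the 10 genes, *Srsf1*, up to 4 genes per list with an unadjusted p under 0.05 (otherwise the 2 highest) and the 3 genes most like each of the 10. Also named were *Klf1* and genes sharing their exons or listed at 0, picked once their values had been seen. Some genes that this rule names are not reported here. Positions and lengths of all 10 matched GENCODE release 21.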

Additional observations from a re-analysis of the deposited data

How the results depend on the processing

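Of 171 values of the 9 tested Sertoli genes under 19 alternatives, 158 kept their direction and their side of the threshold, 3 (all *Gata1*) passed it and 10 turned direction, all of the latter for genes far from the threshold. Centring on other Sertoli markers gave -0.021 for *Sox8* and -0.028 for *Gata4*, and weighting the samples -0.010 for *Gata4* and -0.051 for *Cst9*. Leaving out 1 sample at a time gave -0.22 to 0.00059 for *Sox9*, -0.082 to 0.18 for *Sox8*, -0.092 to 0.16 for *Gata4*, -0.13 to 0.40 for *Cst9* and -0.21 to 0.027 for *Clu*, where Ctrl 2 set the lower end and, for *Clu*, leaving out Ctrl 1 gave 0.021. The difference (cKO minus Ctrl) in the log2 ratio of *Wt1* to *Sox9* lay between -0.19 and 0.023. The groups did not overlap, with cKO lower, for 2 to 6 of the 10 genes (6 without Ctrl 2, the lowest control of most of them) against 15.9% to 19.4% of all tested genes. With cKO higher, the counts were 0 to 1 (*Ptgds*, or *Trf* from below the filter) against 13.5% to 17.1%. These last counts were added after the data were seen.

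Over all tested genes, 0 were called lower and 0 higher, with 1508 and 1069 at an unadjusted p under 0.05. The counts lower and higher were 1 and 4 with TPM, 18 and 5 with centring (which left 305 higher at an unadjusted p under 0.05), 176 and 37 for protein-coding genes, 61 and 22 with voom, 55 and 13 with sample weights, and 0 and 1 without the trend. Leaving out 1 sample gave 0 to 15 lower and 0 to 3 higher, 15 and 3 without Ctrl 2 and 2 and 3 without Ctrl 3. Protein-coding genes, voom and sample weights each called 1 Sertoli gene, *Gata1*. *Srsf1* passed the threshold with TPM (-0.86), centring (-0.95), protein-coding genes (-0.85), voom (-0.86) and sample weights (-0.88). Same-numbered samples correlated in their deviations by only 0.066, 0.016 and 0.088. The labels state no pairing, and these 3 values, not compared with other sample pairs, cannot decide whether the numbers pair samples. A fit with the replicate number as a block called 84 genes lower and 14 higher, *Srsf1* among them (-0.85), with an adjusted p of 0.0524 for *Gata1*. The causes of these shifts were not tested. Depth limits *Trf* (10 to 23 reads) most.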
